A study of Mus musculus with 9 samples.

Results

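This account concerns the mouse genes of 3 protease families: the ADAM metalloproteinases, the ADAMTS metalloproteinases with their ADAMTS-like relatives, and the cathepsins. Members were the protein-coding rows of the deposited count table whose symbol is Adam, Adamts, Adamtsl or Cts followed by a number or a single letter. The rule found 55 of 27370 genes, namely 18 Adam, 18 Adamts, 5 Adamtsl and 14 cathepsin genes. It used no measured value, but the families were chosen with earlier results of these data known. RNA was measured in 9 libraries in 3 groups of 3. The first group was steady-state fibroblastic reticular cells (FRC) of lymph nodes, sorted as tdTomato-negative cells. The second was steady-state red pulp fibroblasts (RPF) of the spleen, sorted as tdTomato-positive cells, and the third was RPF from mice given diphtheria toxin, which are called depleted RPF here. Cells were depleted of CD45+ leukocytes before the sort, and the labels give no toxin dose or interval. All 12 mice were 4 months old and carried the same alleles, Wt1CreERT2, RosatdTomato and CD64DTR, so the controls carried them too. Wt1CreERT2 is a tamoxifen-dependent Cre recombinase made where Wt1 is expressed, and it switches on the tdTomato reporter. CD64DTR is a diphtheria toxin receptor made in cells that express CD64, chiefly macrophages, which the toxin kills. Each library pooled 2 mice, and the 6 untreated mice gave both the lymph nodes and the steady-state spleens. The sources used here do not say which FRC and RPF libraries have mice in common, and the tests treated all libraries as independent.

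ADAM proteases sit in the cell membrane and cut the outer part of other membrane proteins free, a step called shedding that releases growth factors, cytokines and adhesion molecules. ADAMTS proteases are secreted and cut matrix proteins such as versican, procollagens and von Willebrand factor, while ADAMTS-like proteins lack the protease domain and bind the microfibrils of the matrix. Cathepsins are proteases that mostly work in the acid lysosome, where they break down proteins that the cell has taken up or recycles.

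Total counts ran from 25414645 to 43879806 per library. Levels are given as TMM-normalised CPM, counts scaled to a common library size. Levels of different genes are compared only per kilobase of exonic length (CPM per kb). The summed level of 10 fibroblast markers was 25454 CPM in FRC, 8007 CPM in steady-state RPF and 6359 CPM in depleted RPF. The collagen genes Col3a1, Col1a2 and Col1a1 weighed most in the FRC sum, at 11175, 6202 and 3710 CPM. By the test given below, 3 of these markers were higher and 6 lower in steady-state RPF than in FRC. After depletion 1 was higher and 4 were lower. The higher one, Pdgfrb, was at 514, 941 and 2329 CPM in FRC, steady-state and depleted RPF. The Wt1 gene itself was at 1.63 CPM in FRC, 62.1 CPM in steady-state RPF and 34.3 CPM in depleted RPF. Podoplanin (Pdpn), the gp38 antigen stained in the sort, was at 74.0 CPM in FRC and at 0.0980 and 0.0732 CPM in steady-state and depleted RPF. The summed level of 12 red pulp macrophage markers ran from 92.5 to 111 CPM in FRC, from 218 to 252 CPM in steady-state RPF and from 1.47 to 15.3 CPM in depleted RPF. Slc11a1, Spic and Hpgd weighed most in the FRC sum, at 37.2, 26.9 and 20.1 CPM. In FRC Cd5l had 0 counts, and Cd163, Mrc1 and Adgre1 were at 0.0227, 0.101 and 0.153 CPM. Of these markers C1qa, Cd5l, Adgre1 and Fcgr1 had 0 counts in the depleted libraries. The counts of 4 Y-linked genes summed to 0 in FRC replicate 1 and 1 in RPF steady replicate 1, and to between 2285 and 6101 in the other 7 libraries. The first 2 are called the libraries that lack Y-linked reads here. The labels give no sex, and whether these 2 come from the same mice was not tested. In bulk RNA, fewer cells of a type and less RNA per cell cannot be told apart.

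Many of these protease genes were called in each contrast. Because the families were chosen with earlier results of these data known, the shares below describe the set and do not test it. Of the 55 members, 45 passed the filter on low counts and were tested. The other 10 (Adam1a, Adam3, Adam8, Adam21, Adam30, Adam32, Adamts6, Adamts16, Adamts19 and Ctsw) had group means of at most 0.650 CPM. A gene was called at an edgeR quasi-likelihood adjusted p under 0.05, adjusted over all 15103 genes tested. Steady-state RPF had 6 members higher and 21 lower than FRC, which is 60% of the 45 tested, where 25.9% of all tested genes were called. For single directions, 11.5% of all tested genes were called higher and 14.4% lower. The members' median log2 difference was -1.32 and that of all tested genes was -0.02. The libraries of both groups did not overlap for 33 of the 45 members, against 44.6% of all tested genes. Depleted RPF had 8 members higher and 12 lower than steady-state RPF, which is 44.4% of the tested members, where 21% of all tested genes were called. Here 11.1% of all tested genes were called higher and 9.96% lower, and the median log2 change was -0.62 for the members and -0.09 for all tested genes. In this contrast 28 of the 45 members did not overlap between groups, against 44.4% of all tested genes. The counts by role and by list below are to be read beside these shares of all tested genes. They rest on small sets, and no set was tested.

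**Figure D1:**
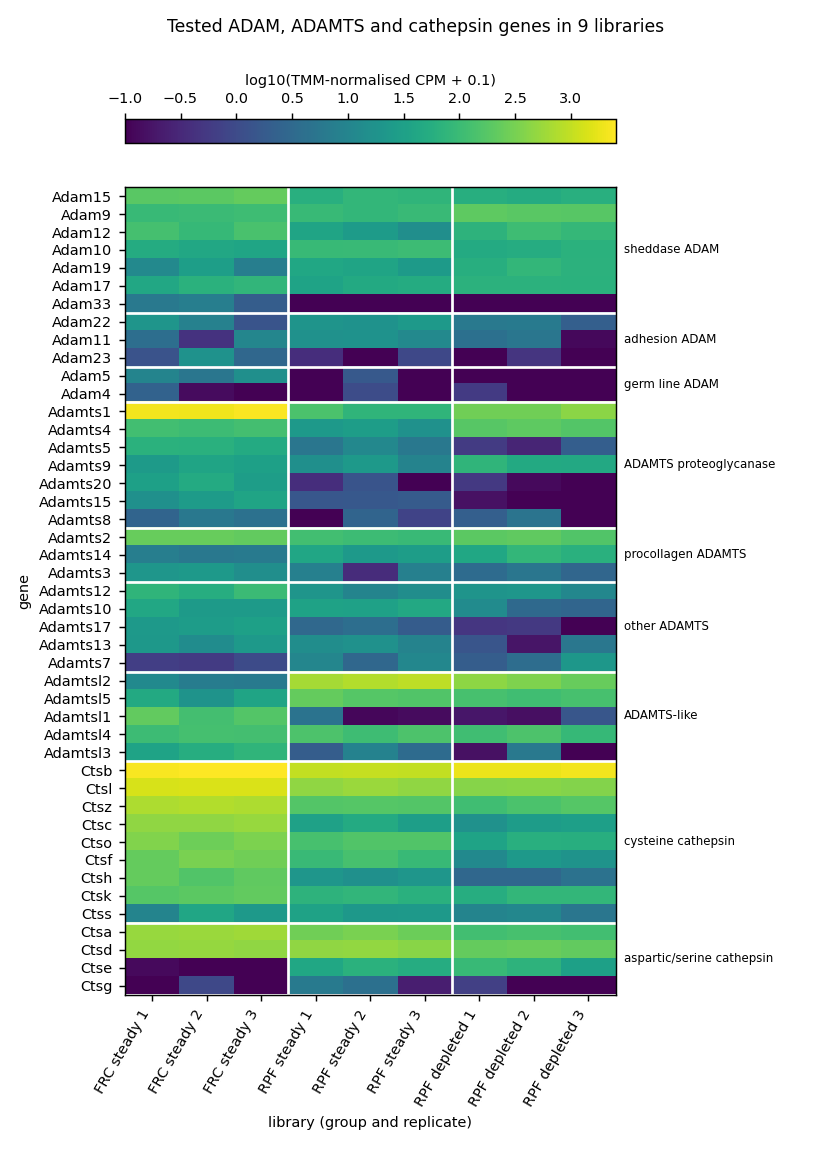
Level of each of the 45 tested genes (rows, grouped by role) in the 9 libraries (columns, by group and replicate), as log10 of TMM-normalised CPM plus 0.1. Adamts1 and most cathepsins are brightest in the 3 FRC libraries, and Adamtsl2 in the 3 steady-state RPF libraries.

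The leading gene per kilobase of exonic length differed by group. Among the ADAM, ADAMTS and ADAMTS-like genes, Adamts1 held 63.0% of the summed CPM per kb in FRC, with 409 CPM per kb. In steady-state RPF the first was Adamtsl2, with 96.5 CPM per kb and 32.7% of the sum, followed by Adamtsl5 and Adamtsl4. In depleted RPF Adamts1 came first again with 18.7%, followed by Adam9 with 13.7% and Adamtsl2 with 12.9%. Among the cathepsins, Ctsz came first in FRC with 27.7% of their summed CPM per kb, Ctsd in steady-state RPF with 25.6% and Ctsb in depleted RPF with 45.9%. These shares are descriptions over group means and carry no test. The exonic length is the union of all annotated exons of a gene, and the ranks hold for that length only. For Ctsb it was 6051 bases, where the deposited median transcript length was 1269 bases. For Ctsz both were 1441 bases, and for Ctsd they were 2351 and 1922 bases. Ranks by transcript length were not computed.

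**Figure D2:**
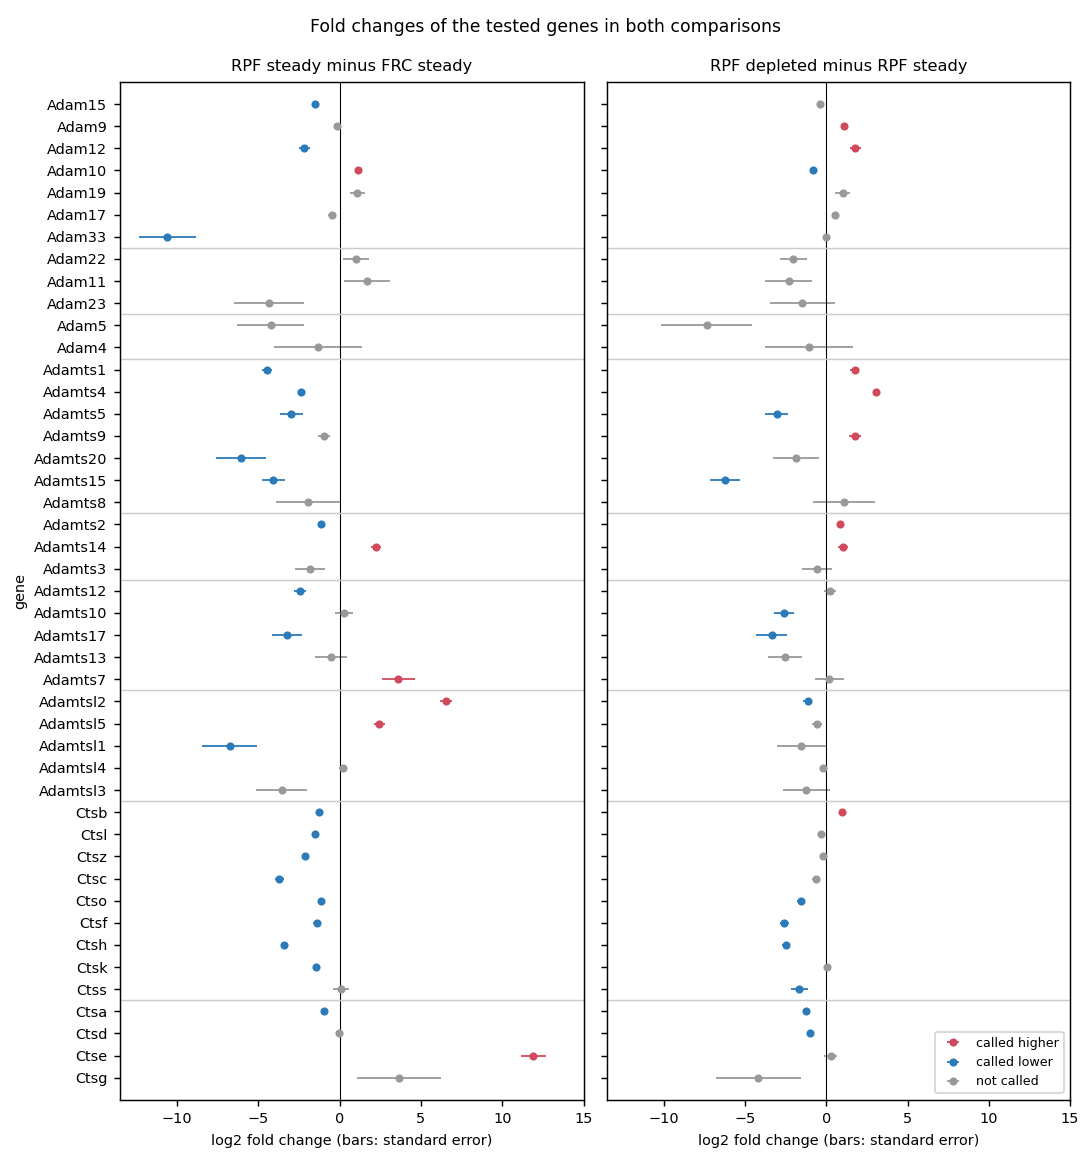
Fitted log2 fold change (horizontal axis, bars are standard errors) of the 45 tested genes in steady-state RPF minus FRC (left) and depleted minus steady-state RPF (right). Blue points, called lower, make up 21 of the 27 calls on the left and 12 of the 20 on the right. The fitted values of genes with few or no counts in one group, such as Ctse and Adam33 on the left, depend on the fit's prior count.

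The membrane sheddases went in different directions after depletion. Of 7 tested sheddase genes, 2 rose, 1 fell and 4 were not called, with a median log2 change of 0.57. Adam9 (ENSMUSG00000031555), a sheddase of broad range, was at 91.9, 83.4 and 95.2 CPM in the steady-state RPF libraries and at 204, 187 and 179 CPM in the depleted ones. All depleted libraries lay above all steady-state ones, and the rise was 2.11-fold (log2 1.08, SE 0.12, edgeR adjusted p = 0.00033). FRC stood at 91.6, 102 and 108 CPM, close to steady-state RPF (edgeR adjusted p = 0.398). Adam12 (meltrin alpha) was at 126, 87.5 and 139.8 CPM in FRC, 36.4, 26.2 and 15.1 CPM in steady-state RPF and 70.3, 110.4 and 86.1 CPM in depleted RPF. Both its lower level in steady-state RPF (log2 -2.18, SE 0.34, edgeR adjusted p = 0.00143) and its rise after depletion (log2 1.78, SE 0.33, edgeR adjusted p = 0.00525) passed the test.

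Adam10 went the other way. Adam10 (ENSMUSG00000054693), the sheddase of Notch receptors and many adhesion molecules, was at 50.5, 43.4 and 39.4 CPM in FRC, 94.0, 97.2 and 105 CPM in steady-state RPF and 48.2, 53.1 and 64.9 CPM in depleted RPF. Steady-state RPF thus stood above both other groups without overlap. The difference from FRC was 2.22-fold (log2 1.15, SE 0.17, edgeR adjusted p = 0.000946), and the fall after depletion was 1.78-fold (log2 -0.83, SE 0.17, edgeR adjusted p = 0.00704). Adam17, the enzyme that releases TNF from the membrane, was at 35.1, 46.4 and 52.0 CPM in steady-state and 67.3, 66.4 and 64.3 CPM in depleted RPF. All depleted libraries lay above the steady-state ones, and the difference was not called (log2 0.57, SE 0.24, edgeR adjusted p = 0.13). In FRC it was at 43.7, 63.8 and 79.7 CPM, which overlapped steady-state RPF (edgeR adjusted p = 0.171, and 0.0472 without FRC replicate 1). Adam17 shares 311 bases with Iah1 on the other strand.

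Against FRC, steady-state RPF had 1 sheddase higher and 3 lower of 7. Adam15, an ADAM that also binds integrins, had a mean of 208 ± 21.1 CPM (SD, n = 3) in FRC against 73.5 ± 11.9 CPM in steady-state RPF (edgeR adjusted p = 0.000133). In depleted RPF it had 56.5 ± 4.60 CPM. Adam33 had 5.91, 7.53 and 1.91 CPM in the FRC libraries and 0 counts in all 6 RPF libraries. With 3 counts per group set as the floor, it was at least 214-fold lower in steady-state RPF (edgeR adjusted p = 0.0118). That call was lost, at an adjusted p of 0.0726, without FRC replicate 1 and RPF steady replicate 1 together, the pair of libraries that lack Y-linked reads. Adam19 (meltrin beta) was at 16.2 ± 11.6, 34.5 ± 8.27 and 69.8 ± 12.3 CPM in FRC, steady-state and depleted RPF, and neither difference was called.

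A further list held genes for carriers of ADAM10 and ADAM17, convertases that can activate ADAMs, and adaptors that bind ADAMs. Of its 14 tested genes, 5 rose after depletion and 2 fell, with a median log2 change of 0.10. The called carriers of ADAM17 rose and the called tetraspanins of ADAM10 fell. Rhbdf2 (iRhom2), which carries ADAM17 out of the endoplasmic reticulum, was at 21.9, 24.9 and 17.1 CPM in steady-state and 217, 154 and 147 CPM in depleted RPF, an 8.11-fold rise (edgeR adjusted p = 4.35e-05). Rhbdf1 (iRhom1) rose 2.45-fold to 166 ± 21.4 CPM, and Frmd8, which stabilises the iRhom complex, rose 1.87-fold to 159 ± 11.6 CPM. Tspan15, a tetraspanin that escorts ADAM10, was at 37.8, 37.6 and 19.6 CPM in FRC, 289, 274 and 283 CPM in steady-state RPF and 59.2, 70.5 and 83.6 CPM in depleted RPF. Like Adam10 it was highest in steady-state RPF, 8.91-fold above FRC (edgeR adjusted p = 3.47e-05), and fell 3.97-fold after depletion (edgeR adjusted p = 0.000654). Tspan17, of the same tetraspanin group, fell 3.90-fold to 10.1 ± 3.18 CPM. Of the other tested ADAM10 tetraspanins, Tspan5, Tspan14 and Tspan33 were not called after depletion, with log2 changes of -0.44, -0.42 and 1.17. Furin, the convertase that removes the ADAM prodomain, rose 1.85-fold, and Sh3pxd2b, an adaptor that binds ADAMs in podosomes, rose 5.49-fold. Against FRC, the same list had 4 genes higher and 4 lower in steady-state RPF.

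**Figure D3:**
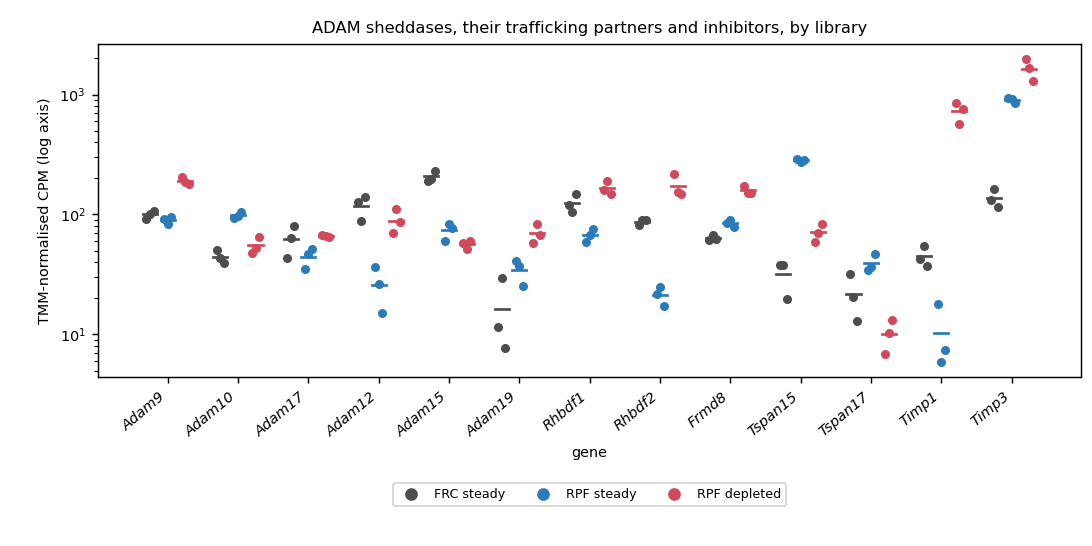
TMM-normalised CPM (log axis) of 6 sheddase genes, 5 genes of their carriers and 2 inhibitor genes in each library, with a bar at the group mean. Adam10, Tspan15 and Tspan17 sit lower in the depleted (red) than in the steady-state RPF libraries (blue), while Adam9, Adam12, Rhbdf1, Rhbdf2 and Frmd8 sit higher.

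All 4 tested inhibitors of metalloproteinases were called after depletion, 2 in each direction, where 21% of all tested genes were called. Timp3, the tissue inhibitor that also blocks ADAM17 and ADAMTS proteases, was at 133, 163 and 116 CPM in FRC, 943, 917 and 845 CPM in steady-state RPF and 1985, 1653 and 1303 CPM in depleted RPF. It was 6.58-fold higher in steady-state RPF than in FRC (edgeR adjusted p = 1.08e-05) and rose 1.83-fold after depletion (edgeR adjusted p = 0.00761). Timp1, an inhibitor known to block ADAM10, was at 42.5, 54.6 and 37.5 CPM in FRC, 17.8, 5.94 and 7.40 CPM in steady-state RPF and 845, 573 and 761 CPM in depleted RPF, and its rise had a log2 value of 6.13 (edgeR adjusted p = 6.45e-05). Reck, a membrane-anchored inhibitor, fell 2.40-fold, its means being 379.9 ± 38.7 CPM before and 158 ± 27.0 CPM after (edgeR adjusted p = 0.000387), and Timp2 fell 1.45-fold.

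Among 19 tested genes whose products are shed by ADAM10 or ADAM17, 8 rose after depletion and 2 fell, and the median log2 change was 0.90. Of all tested genes, 11.1% rose and 9.96% fell. Cd44, the hyaluronan receptor, was at 105, 103 and 70.9 CPM in steady-state and 666, 589 and 536 CPM in depleted RPF, a rise of 6.44-fold (edgeR adjusted p = 2.76e-05). Cxcl16, a membrane-bound chemokine, rose 6.30-fold to 461 ± 48.6 CPM, against 529 ± 6.77 CPM in FRC. The TNF receptor Tnfrsf1b rose 2.47-fold, and the EGF receptor ligand gene Hbegf 3.63-fold to 58.2 ± 19.4 CPM. Ereg, another EGF receptor ligand, went from 0 counts to 10.7, 10.2 and 8.58 CPM, at least 415-fold higher by the same floor (edgeR adjusted p = 0.00172). Kitl, Csf1 and Icam1 completed the genes that rose, and Vcam1 and Btc fell. Btc was at 2.06, 0.0197 and 4.36 CPM in steady-state and 0.0287, 0 and 0.0446 CPM in depleted RPF, so RPF steady replicate 2 overlapped the depleted libraries. Tnf itself was at 0.447, 0 and 0 CPM in steady-state and 7.14, 15.3 and 13.7 CPM in depleted RPF and was not called (edgeR adjusted p = 0.0804). Steady-state RPF had 4 of these genes higher and 11 lower than FRC.

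The adhesion ADAMs, which lack an active protease site, and the germ line ADAMs were low and not called in either comparison. Adam11 was at 3.76, 0.341 and 10.3 CPM in FRC, 17.1, 17.6 and 11.5 CPM in steady-state RPF and 4.13, 5.18 and 0.0223 CPM in depleted RPF (edgeR adjusted p = 0.44 and 0.311). Adam22, a receptor for LGI proteins, had means of 9.71, 19.5 and 4.74 CPM in the same order, and Adam23 was at 7.12, 0.357 and 0.126 CPM. Adam5, best known from the testis, was at 9.76, 5.25 and 15.5 CPM in FRC, 0, 1.60 and 0 CPM in steady-state RPF and 0 counts in depleted RPF. All FRC libraries lay above the RPF ones, and the difference between FRC and steady-state RPF (edgeR adjusted p = 0.188) was called without RPF steady replicate 2 (0.011) and in limma-voom (0.00743). After depletion (edgeR adjusted p = 0.119) it was called in DESeq2 (0.0132), and its steady-state counts came from RPF steady replicate 2 alone.

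Most of the proteoglycan-cutting ADAMTS genes were called in each contrast. Of 7 tested, 5 were lower in steady-state RPF than in FRC and 0 higher, where 14.4% of all tested genes were lower and 11.5% higher. After depletion 3 rose and 2 fell, where 11.1% of all tested genes rose and 9.96% fell. Adamts1 (ENSMUSG00000022893, mm10 chromosome 16, 85793827 to 85803113), a versican- and aggrecan-cutting protease, was at 2095, 2054 and 2359 CPM in FRC, 141, 76.0 and 76.9 CPM in steady-state RPF and 280.2, 281 and 439 CPM in depleted RPF. The 3 groups did not overlap. Steady-state RPF were 22.1-fold below FRC (log2 -4.47, SE 0.31, edgeR adjusted p = 1.12e-05), and the level rose 3.40-fold after depletion (log2 1.76, SE 0.27, edgeR adjusted p = 0.00202).

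Adamts4 (ENSMUSG00000006403), an aggrecanase that is induced by inflammatory cytokines, was at 117, 106 and 124 CPM in FRC, 23.1, 27.7 and 16.9 CPM in steady-state RPF and 181, 206 and 171 CPM in depleted RPF. The depleted libraries lay above those of both other groups. Its rise of 8.25-fold (log2 3.04, SE 0.20, edgeR adjusted p = 3.37e-05) followed a steady-state level 5.12-fold below FRC (edgeR adjusted p = 3.05e-05). Adamts9, also a versicanase, rose from 15.5, 23.9 and 9.12 to 76.2, 46.4 and 45.1 CPM (log2 1.79, SE 0.37, edgeR adjusted p = 0.00929). Without both libraries that lack Y-linked reads its adjusted p was 0.0509. In FRC it had 25.2, 36.6 and 32.3 CPM, above steady-state RPF in all libraries but not called (edgeR adjusted p = 0.0897, and 0.0375 without RPF steady replicate 2).

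Adamts15 and Adamts5, low already in steady-state RPF, fell after depletion. Adamts15 was at 16.3, 26.3 and 37.8 CPM in FRC, 1.45, 1.54 and 1.72 CPM in steady-state RPF and 0.0574, 0 and 0 CPM in depleted RPF. The last group held 2 counts in all, so that steady state stood 90.4 times as high, with 24.7 to 751 as the 95% counting interval (edgeR adjusted p = 0.0014). Adamts5, the main aggrecanase of mouse cartilage, was at 63.9, 62.4 and 48.9 CPM in FRC, 5.19, 11.4 and 5.58 CPM in steady-state RPF and 0.488, 0.189 and 1.96 CPM in depleted RPF. It was lower in steady-state RPF (log2 -2.98, edgeR adjusted p = 0.0141) and fell after depletion (log2 -3.05, edgeR adjusted p = 0.0172). Both calls were lost when some libraries were left out, with adjusted p values of 0.0591 without RPF steady replicate 2, 0.0644 without RPF depleted replicate 1, and 0.0585 and 0.0602 for the FRC contrast without RPF steady replicate 1 or 3. Without both libraries that lack Y-linked reads they were 0.0507 after depletion and 0.109 against FRC. Adamts20 was at 31.5, 49.3 and 28.5 CPM in FRC and 0.276, 1.30 and 0 CPM in steady-state RPF (log2 -6.07, edgeR adjusted p = 0.018, with 0.0692 without RPF steady replicate 1, 0.0501 without FRC replicate 2 and 0.11 without both libraries that lack Y-linked reads).

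Adamts1 and Adamts5 lie close together on chromosome 16, and after depletion the first rose while the second fell. Their summed family, the 18 Adamts genes, was at 2858 ± 178 CPM in FRC, 366 ± 60.1 CPM in steady-state RPF and 868 ± 53.7 CPM in depleted RPF, a sum in which Adamts1 weighs most. Smooth muscle and pericyte markers also differed between the RPF groups, and their part in the ADAMTS changes was not tested. The sum of 5 such markers ran from 764 to 1192 CPM in steady-state RPF and was between 3869 and 6048 CPM in depleted RPF, with Acta2 and Des called higher. Rgs5 and Cspg4, of the same list, were at 0.111 and 0.0238 CPM after depletion.

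The procollagen N-proteinases, which trim the amino-terminal propeptide of fibrillar procollagens, had 2 of 3 genes higher after depletion. Adamts2 was at 235, 237 and 225 CPM in FRC, 119, 104 and 96.7 CPM in steady-state RPF and 193, 212 and 159.6 CPM in depleted RPF, lower in steady-state RPF than in FRC (log2 -1.13, edgeR adjusted p = 0.000325) and 1.77-fold higher after depletion (edgeR adjusted p = 0.0026). Adamts14 was at 7.61, 5.59 and 6.53 CPM in FRC, 40.0, 23.8 and 28.0 CPM in steady-state RPF and 42.3, 82.7 and 62.4 CPM in depleted RPF. It was higher in RPF (log2 2.22, edgeR adjusted p = 0.000824) and rose further (log2 1.03, edgeR adjusted p = 0.0381). The second call was lost without RPF steady replicate 2 or 3 or RPF depleted replicate 2 or 3, with adjusted p values from 0.0944 to 0.149. Adamts3 was not called in either contrast.

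Of the 5 other tested ADAMTS genes, 2 fell after depletion and 0 rose. Adamts10, which acts on fibrillin microfibrils, was at 44.4, 25.2 and 24.9 CPM in FRC, 34.6, 32.4 and 45.8 CPM in steady-state RPF and 12.9, 3.10 and 2.63 CPM in depleted RPF. Depleted replicate 1 stood above the other depleted libraries, and all 3 lay below steady state (log2 -2.60, SE 0.61, edgeR adjusted p = 0.0158, and 0.0518 without RPF depleted replicate 2). Adamts17 was at 24.1, 26.6 and 31.2 CPM in FRC, 2.91, 3.79 and 1.82 CPM in steady-state RPF and 0.402, 0.431 and 0 CPM in depleted RPF. Both its calls (log2 -3.26 and edgeR adjusted p = 0.0295 against FRC, log2 -3.36 and 0.0357 after depletion) were lost in 7 of 13 alternatives each. Against FRC these were the removal of any 1 library and of both that lack Y-linked reads, with adjusted p values from 0.0575 to 0.135. After depletion they were the same pair, any 1 RPF library other than depleted replicate 3, and the fit of the compared groups alone, from 0.0565 to 0.131. Adamts12, which cuts cartilage oligomeric matrix protein, was 5.39-fold lower in steady-state RPF (19.3, 9.43 and 14.4 CPM) than in FRC (76.3, 55.4 and 101 CPM; edgeR adjusted p = 0.00128) and stayed at 18.9, 20.5 and 11.01 CPM after depletion. Adamts7 was higher in steady-state RPF than in FRC at 7.94 against 0.649 CPM (edgeR adjusted p = 0.0306). That call was lost without any of FRC replicates 1 to 3 or RPF steady replicate 1 or 3, and in limma-voom, with adjusted p values from 0.062 to 0.159 over these and the removal of both libraries that lack Y-linked reads. Adamts13, the von Willebrand factor protease, was at 13.4 CPM in steady-state and 2.30 CPM in depleted RPF without a call (edgeR adjusted p = 0.121).

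**Figure D4:**
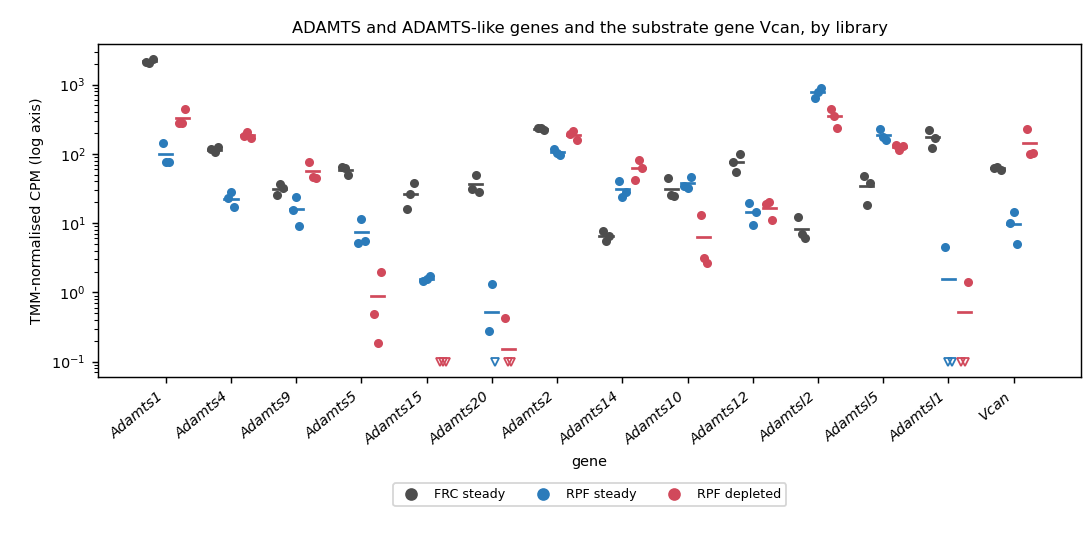
TMM-normalised CPM (log axis) of 13 ADAMTS and ADAMTS-like genes and of Vcan in each library, with a bar at the group mean and open triangles for values under 0.1. Adamts1, Adamts4, Adamts9 and Vcan sit higher in depleted (red) than in steady-state RPF (blue), and Adamts5, Adamts15 and Adamts10 sit lower.

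The ADAMTS-like genes, whose products have no protease domain, held the member with the most RNA per length of the metalloproteinase families in steady-state RPF. Adamtsl2 (ENSMUSG00000036040, chromosome 2, 27079379 to 27108981), a partner of fibrillin and latent TGF-beta binding protein, was at 12.1, 6.89 and 6.05 CPM in FRC, 633, 777 and 905 CPM in steady-state RPF and 448, 357 and 239 CPM in depleted RPF. The difference from FRC was 92.4-fold (log2 6.53, SE 0.38, edgeR adjusted p = 4.68e-06). The fall after depletion was 2.22-fold (log2 -1.15, SE 0.30, edgeR adjusted p = 0.0255). That fall lost its call without RPF steady replicate 2 or 3 or RPF depleted replicate 2 or 3, at adjusted p values from 0.0702 to 0.0857.

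Adamtsl5 was also higher in steady-state RPF, at 226, 177 and 161 CPM against 47.2, 18.2 and 37.8 CPM in FRC (log2 2.45, edgeR adjusted p = 0.000532), and stood at 134, 113 and 132 CPM after depletion. The RPF libraries did not overlap, and the change was not called (log2 -0.57, edgeR adjusted p = 0.23) except with the compared groups alone (0.0312). Adamtsl1 was the reverse, at 224, 123 and 171 CPM in FRC and 4.59, 0.0197 and 0.0330 CPM in steady-state RPF (log2 -6.77, SE 1.67, edgeR adjusted p = 0.0169, and 0.0827 with no filter on low counts). RPF steady replicate 1 stood far above the other steady-state RPF libraries, and without it the log2 difference was -12.57. Adamtsl4, also a microfibril protein, was at 118, 134 and 116 CPM in the 3 groups and was not called.

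Substrates and matrix partners of the ADAMTS proteins mostly had lower levels in RPF. Of 15 tested, 1 was higher and 9 were lower in steady-state RPF than in FRC, and after depletion 2 rose and 5 fell, with a median log2 change of -0.60. Vcan, the proteoglycan versican, was at 61.6, 65.5 and 58.3 CPM in FRC, 10.1, 14.4 and 4.96 CPM in steady-state RPF and 231, 99.97 and 104 CPM in depleted RPF. Its groups fell in the same order as those of Adamts4, with depleted RPF highest and steady-state RPF lowest, and the rise after depletion was 14.7-fold (log2 3.88, SE 0.46, edgeR adjusted p = 0.000505). Col5a1, a fibrillar collagen chain, rose 1.91-fold. Col3a1, a procollagen cut by the N-proteinases, fell 2.02-fold to 808 ± 107 CPM, and Col1a2, Bgn, Dcn and Lrp1 fell as well. Fbn1, the fibrillin bound by several ADAMTS-like proteins, was at 429.7 ± 42.3 CPM in FRC and 198 ± 13.8 CPM in steady-state RPF (edgeR adjusted p = 0.000859) and at 148 ± 29.5 CPM in depleted RPF (edgeR adjusted p = 0.096).

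Most cathepsin genes stood lower in RPF than in FRC. Of 13 tested, 1 was higher and 9 were lower in steady-state RPF, with a median log2 difference of -1.26. After depletion 1 rose and 6 fell, with a median log2 change of -0.98. Of all tested genes, 11.5% were higher and 14.4% lower against FRC, and 11.1% rose and 9.96% fell after depletion. The summed level of the 14 genes overlapped between the RPF groups, with 2899 ± 185 CPM in steady-state and 3097 ± 167 CPM in depleted RPF (SD, n = 3), against 7130 ± 230 CPM in FRC.

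Ctsb was the gene that rose. Ctsb (ENSMUSG00000021939, chromosome 14, 63122462 to 63145923), a cysteine protease with endo- and exopeptidase activity, was at 2295, 2466 and 2525 CPM in FRC, 1015, 1022 and 1015 CPM in steady-state RPF and 1844, 1868 and 2142 CPM in depleted RPF. The steady-state RPF libraries were nearly identical, and both other groups lay above them. The rise was 1.92-fold (log2 0.94, SE 0.09, edgeR adjusted p = 0.000196), and steady-state RPF stood 2.39-fold below FRC (edgeR adjusted p = 1.71e-05). Ctsb took 21.9% of the cathepsins' summed CPM per kb in steady-state and 45.9% in depleted RPF.

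The other cysteine cathepsins with a call after depletion fell. Ctsf was at 229, 332 and 282 CPM in FRC, 97.3, 132 and 93.7 CPM in steady-state RPF and 12.4, 23.7 and 18.3 CPM in depleted RPF, a 5.93-fold fall (log2 -2.57, SE 0.26, edgeR adjusted p = 0.000252). Ctsh, an aminopeptidase, was at 226, 162 and 209 CPM in FRC, 20.6, 15.8 and 20.4 CPM in steady-state RPF and 2.87, 2.83 and 4.46 CPM in depleted RPF. It was 10.5-fold lower in steady-state RPF than in FRC and fell a further 5.58-fold (edgeR adjusted p = 1.37e-05 and 0.00017). Ctso fell 2.93-fold, with 129.6, 162 and 159 CPM in steady-state and 35.3, 60.5 and 58.2 CPM in depleted RPF (edgeR adjusted p = 0.0013) and was lower in steady-state RPF than in FRC, whose libraries had 374, 272 and 342 CPM (edgeR adjusted p = 0.00505, and 0.0636 without both libraries that lack Y-linked reads). For each of these 3 genes the libraries of the 3 groups did not overlap, with FRC highest and depleted RPF lowest.

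Ctss, the cathepsin of antigen-presenting cells, was at 9.67, 40.9 and 23.3 CPM in FRC, 34.4, 22.0 and 23.1 CPM in steady-state RPF and 9.44, 10.6 and 5.26 CPM in depleted RPF. Its fall (log2 -1.65, SE 0.51, edgeR adjusted p = 0.0491) lost its call without any 1 RPF library or both libraries that lack Y-linked reads, at adjusted p values from 0.0614 to 0.146, and FRC did not differ from steady-state RPF by the test (edgeR adjusted p = 0.91). The sum of the red pulp macrophage markers fell as well, from 240.5 ± 19.2 CPM in steady-state to 7.73 ± 6.99 CPM in depleted RPF. In FRC that sum was 101 ± 9.33 CPM, most of it from Slc11a1, Spic and Hpgd. Lyz2, of the monocyte and dendritic cell markers, fell from 28.2 to 9.39 CPM (edgeR adjusted p = 0.0373), while Plac8 rose. Ighm and Jchain, of the B and plasma cell markers, fell too. The other tested markers of these last lists were not called. The part of any of these cells in the falls of Ctss and the other cathepsins was not tested.

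Ctsc, Ctsz, Ctsl and Ctsk differed between the fibroblast types and were not called after depletion. Ctsc, the dipeptidyl peptidase that activates granule proteases of leukocytes, was at 479, 476 and 529 CPM in FRC and 33.3, 49.7 and 29.7 CPM in steady-state RPF, 13.2-fold lower (edgeR adjusted p = 1.56e-05), with 16.8, 26.5 and 30.0 CPM in depleted RPF (edgeR adjusted p = 0.114, and 0.0381 in DESeq2). Ctsz, a carboxypeptidase, was at 720.2, 773 and 727 CPM in FRC, 166, 174 and 167 CPM in steady-state RPF and 114, 145 and 174 CPM in depleted RPF, 4.38-fold lower in steady-state RPF than in FRC (edgeR adjusted p = 1.41e-05). Ctsl, a major lysosomal endopeptidase, was at 1368, 1407 and 1417 CPM in FRC, 471, 558 and 462 CPM in steady-state RPF and 408, 414 and 390.3 CPM in depleted RPF. Its RPF groups did not overlap, and its log2 change of -0.30 (edgeR adjusted p = 0.0661) was called under other settings, at adjusted p values of 0.0383 with RLE scaling, 0.00513 in DESeq2 and 0.0429 in limma-voom. Ctsk, the collagen-degrading cathepsin of bone, was 2.79-fold lower in steady-state RPF (70.0, 77.4 and 63.2 CPM) than in FRC (172, 196 and 219 CPM; edgeR adjusted p = 0.00034). Depleted RPF had 55.9, 81.9 and 80.8 CPM of it, without a call.

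Among the aspartic and serine cathepsins, Ctsd and Ctsa fell with depletion. Ctsd (ENSMUSG00000007891), the main aspartic protease of lysosomes, was at 483, 500.0 and 466 CPM in FRC, 478, 497 and 409 CPM in steady-state RPF and 233, 248 and 218 CPM in depleted RPF. FRC and steady-state RPF overlapped (edgeR adjusted p = 0.718), and the fall was 1.98-fold (log2 -0.98, SE 0.11, edgeR adjusted p = 0.000337). Ctsa, the serine carboxypeptidase that protects beta-galactosidase and neuraminidase in the lysosome, was at 523, 559 and 588 CPM in FRC, 278, 327 and 256 CPM in steady-state RPF and 115, 130.4 and 119 CPM in depleted RPF. Its fall was 2.37-fold (edgeR adjusted p = 0.000178), and it was 1.94-fold lower in steady-state RPF than in FRC (edgeR adjusted p = 0.00041). Ctsa shares 1515 bases with Pltp on the other strand, which fell too, with a log2 change of -1.42.

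Ctse, an aspartic protease of endosomes, was found in RPF and hardly in FRC. The FRC libraries held 1 count in all, and the RPF libraries stood at 41.5, 65.4 and 52.6 CPM in steady-state and 91.8, 69.0 and 31.1 CPM in depleted RPF. Steady-state RPF stood 5137 times as high as FRC, with 922 to 202943 as the 95% counting interval (edgeR adjusted p = 7.52e-06). Depletion left it uncalled (log2 0.27, SE 0.40, edgeR adjusted p = 0.707). The sum of 6 erythroid markers was 48.3 ± 47.2 CPM in FRC, 419.8 ± 259.9 CPM in steady-state RPF and 499 ± 119.6 CPM in depleted RPF, and its part in the Ctse level was not tested. Ctsg, the serine cathepsin of neutrophil granules, was at 6.12, 4.14 and 0.132 CPM in steady-state and 0.574, 0 and 0 CPM in depleted RPF and was not called. The sum of 9 neutrophil markers ran from 51.9 to 363 CPM in the same steady-state libraries and from 2.74 to 49.8 CPM in the depleted ones, and their part in the Ctsg level was not tested.

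**Figure D5:**
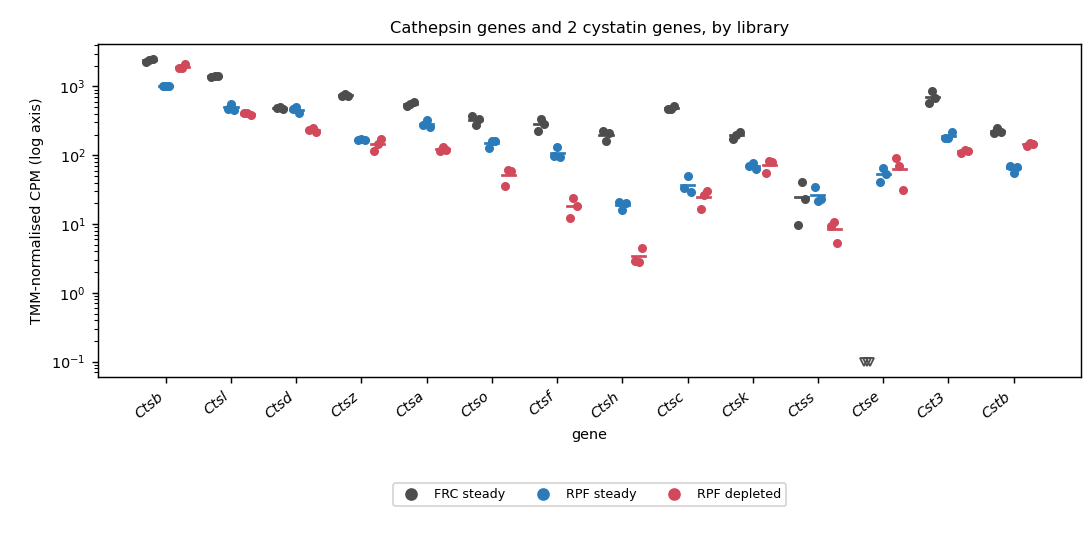
TMM-normalised CPM (log axis) of 12 cathepsin genes and of the cystatin genes Cst3 and Cstb in each library, with a bar at the group mean and open triangles for values under 0.1. Ctsb and Cstb sit higher in depleted (red) than in steady-state RPF (blue), Ctsd, Ctsa, Ctso, Ctsf and Ctsh sit lower, and Ctse is at the floor in FRC (grey).

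Genes for lysosomal proteins can carry the CLEAR element, an E-box with the core CACGTG that is bound by TFEB-family factors, so the 250 bases before the RefSeq starts of the members were searched. RefSeq's promoter table for GRCm38.p6, the assembly of mm10, held 35 starts of 32 members. The letters CACGTG, which read the same on both strands, were in 7 of these 35 windows and in 6.02% of all 32851 windows of that table. The longer palindrome TCACGTGA, which contains it, was in the windows of Ctsa and Ctsd and in 0.785% of all windows. Of 8 matched members that fell after depletion, 5 held CACGTG (Adam10, Adamts17, Ctsa, Ctsd and Ctsf) and Adamtsl2, Ctso and Ctss did not. Of 4 that rose, 0 did, and of 17 tested and not called, Adam19 and Ctsl did. Ctsb, Adamts4, Adam9 and Adam12, which rose, and Ctsh, Adamts5, Adamts10 and Adamts15, which fell, had no window there. The share with CACGTG among all genes called higher or lower was not computed, and a link with direction was not tested. The AP-1 letters TGANTCA, searched on both strands, were in 1 member window, of Adam19, and in 6.75% of all windows. Below are the windows of the 3 cathepsin genes and the sheddase gene that fell and hold the letters, read 5′ to 3′ on the gene's strand, from chr7:142387828-142388077 (minus strand) for Ctsd, chr2:164833523-164833772 (plus) for Ctsa, chr19:4854915-4855164 (plus) for Ctsf and chr9:70678732-70678981 (plus) for Adam10, with CACGTG or TCACGTGA in capitals.
Ctsd: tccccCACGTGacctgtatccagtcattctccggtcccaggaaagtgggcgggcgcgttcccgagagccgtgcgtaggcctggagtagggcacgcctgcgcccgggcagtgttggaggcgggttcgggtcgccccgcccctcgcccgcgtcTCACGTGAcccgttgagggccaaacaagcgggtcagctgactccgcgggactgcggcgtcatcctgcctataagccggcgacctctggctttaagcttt
Ctsa: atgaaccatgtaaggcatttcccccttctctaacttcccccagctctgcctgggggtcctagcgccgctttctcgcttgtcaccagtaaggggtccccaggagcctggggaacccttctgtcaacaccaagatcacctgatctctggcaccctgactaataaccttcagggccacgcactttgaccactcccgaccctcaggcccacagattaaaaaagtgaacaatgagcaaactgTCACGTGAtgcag
Ctsf: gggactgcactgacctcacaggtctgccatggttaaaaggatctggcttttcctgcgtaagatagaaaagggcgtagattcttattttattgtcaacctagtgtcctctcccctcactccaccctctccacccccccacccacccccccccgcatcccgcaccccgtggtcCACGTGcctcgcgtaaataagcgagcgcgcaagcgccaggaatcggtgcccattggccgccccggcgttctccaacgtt
Adam10: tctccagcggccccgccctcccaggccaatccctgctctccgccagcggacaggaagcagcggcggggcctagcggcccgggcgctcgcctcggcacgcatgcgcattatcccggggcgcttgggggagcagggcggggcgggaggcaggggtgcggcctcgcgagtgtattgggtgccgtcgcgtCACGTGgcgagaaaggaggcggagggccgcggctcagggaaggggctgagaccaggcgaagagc
In Ctsd the longer match began 99 bases before the RefSeq start, and a CACGTG stood 245 bases before it. The deposited Ctsd gene begins at 142388038, so most of that window, with the longer match, lies inside the annotated gene. In Ctsa the match began 13 bases before the second of its RefSeq starts, in Ctsf 79 bases and in Adam10 64 bases before the start. The Ctsa window with the match lies wholly inside the annotated gene, which begins at 164832873. The window of the first Ctsa start, chr2:164832622-164832871, lies beside the annotated gene start and held no CACGTG. A match of letters shows neither binding nor its absence.

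Of the factor genes, Tfe3 rose 1.60-fold after depletion (edgeR adjusted p = 0.017) and Mitf fell from 6.61 ± 1.36 to 2.17 ± 0.937 CPM (edgeR adjusted p = 0.0283), while Tfeb, at 12.8 and 5.48 CPM, was not called (edgeR adjusted p = 0.12). They belong to a list of 29 tested genes for sorting to the lysosome and for its enzymes and membrane, of which 4 rose and 11 fell after depletion, with a median log2 change of -0.51. Against FRC, 2 of the list were higher and 14 lower in steady-state RPF. Over all tested genes, 11.1% rose and 9.96% fell after depletion, and 11.5% were higher and 14.4% lower against FRC. Of the 11 that fell, 7 encode lysosomal enzymes. Among them Naglu fell 2.01-fold, Hexa 1.85-fold, Gaa 1.76-fold and Glb1 1.70-fold. Lgmn, the asparaginyl protease legumain that trims cathepsins into their mature forms, was at 29.4, 48.0 and 33.4 CPM in FRC, 175, 138 and 135 CPM in steady-state RPF and 61.7, 40.5 and 77.9 CPM in depleted RPF. It was higher in steady-state RPF than in FRC (edgeR adjusted p = 0.000734) and fell 2.49-fold (edgeR adjusted p = 0.00879). Psap, Tpp1, Sort1 and Cd68 fell too, the last being a macrophage gene at 16.7 CPM before and 1.12 CPM after depletion.

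None of the 4 that rose encodes a lysosomal hydrolase. M6pr, the mannose 6-phosphate receptor that delivers cathepsins to the lysosome, was at 175, 167 and 142 CPM in steady-state and 379, 412 and 408 CPM in depleted RPF, a 2.47-fold rise (edgeR adjusted p = 0.000107). Cd63, a tetraspanin of late endosomes, rose 3.06-fold and Atp6v1h, a proton pump subunit, 1.65-fold. The lysosomal membrane genes Lamp1 and Lamp2 were at 812 ± 48.9 and 1076 ± 148 CPM before and 777 ± 37.9 and 1047 ± 208 CPM after depletion and were not called.

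Of 5 tested inhibitors of cathepsins, 2 rose and 2 fell after depletion. Cstb, the intracellular cystatin B, was at 210.0, 251 and 218 CPM in FRC, 68.9, 55.7 and 68.4 CPM in steady-state RPF and 136, 149 and 148 CPM in depleted RPF, a rise of 2.24-fold (edgeR adjusted p = 0.000348). As for Ctsb, steady-state RPF was the lowest group. Cst3, the secreted cystatin C, fell 1.68-fold after depletion, with 179, 177 and 221 CPM in steady-state and 108, 118 and 117 CPM in depleted RPF (edgeR adjusted p = 0.0104), and FRC stood above both at 570.3, 856 and 672 CPM. Serpina3n rose 2.61-fold and Serpinb6a fell 1.66-fold, and Serpina3g was not called.

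Set side by side, the calls of the 2 contrasts sort the 45 tested members by group order. The contrasts share the steady-state RPF libraries, so their values are not independent. Pairs of calls were not counted over all tested genes, so the counts below have no background to be set against. The 5 genes Adam12, Adamts1, Adamts2, Adamts4 and Ctsb were lower in steady-state RPF than in FRC and rose after depletion. Their log2 values were -2.18 and 1.78 for Adam12, -4.47 and 1.76 for Adamts1, and -1.26 and 0.94 for Ctsb. Another 7, Adamts5, Adamts15, Adamts17, Ctsa, Ctsf, Ctsh and Ctso, were lower and fell further. Adam10 and Adamtsl2 were higher in steady-state RPF and fell, and Adamts14 was higher and rose. In 12 members only the FRC contrast was called, in 5 only the depletion contrast (Adam9 and Adamts9 higher, Adamts10, Ctsd and Ctss lower), and in 13 neither.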

How the data were processed

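PolyA RNA was sequenced in 9 libraries, each from 2 pooled mice. The authors deposited raw counts of reads for each Ensembl gene, and these counts were used. HTSeq 0.6.1p1, STAR 2.5.3a, Bowtie2 2.2.8, cutadapt 1.10 and the mm10 build are named in the submitters' processing notes. The sources used here give no strand setting. Of the 45 tested members, 10 overlap another tested gene, where reads cannot be told apart without strand. A further 24 per-sample columns were not used here. Counts were fitted with edgeR 4.0.16 in R 4.3.3 (filterByExpr with a minimum count of 10, TMM scaling, robust quasi-likelihood, all 9 libraries, 6 residual degrees of freedom), two-sided, and p-values were adjusted by Benjamini-Hochberg over all 15103 tested genes. Libraries are the replicates, and p-values measure the spread between pools. CPM per kb divides mean CPM by the exonic length, the union of a gene's exons in GENCODE M21, which holds all 55 members. A group at 0 counts was set to a floor of 3 counts for a bound, and intervals of ratios at 1 to 3 counts are 95% exact binomial ones that cover counting error only. The members and the lists of related genes were chosen with earlier results of these data known. Members are described in full where they were called with at least 10 CPM and were among the 12 largest changes of a comparison, were first per length in their role, or were Adam10, Adam17, Ctsb, Ctsd, Ctsk, Ctsl or Ctss. Others named are examples, and some results are not reported here. Alternatives were RLE scaling, no filter, a filter of 1 CPM, DESeq2 1.42.0, limma-voom (limma 3.58.1), the compared groups alone, each library left out, and both libraries that lack Y-linked reads left out. The fit was tested on simulated data. Figures were drawn with matplotlib 3.10.9 in Python 3.11.15.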

Additional observations from a re-analysis of the deposited data

How the results depend on the processing

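Of the 20 members called after depletion, 13 were called in all 13 alternatives and 7 lost the call in at least 1. Of the 27 called against FRC, 20 were called in all and 7 lost the call in at least 1, and 0 called members changed direction. Leaving out 1 library at a time gave 7 to 8 members higher and 8 to 11 lower after depletion, and 5 to 6 higher and 18 to 22 lower against FRC. Over all genes, 1505 were called lower after depletion, 2302 in DESeq2, 963 without both libraries that lack Y-linked reads and 968 to 1148 with 1 library left out, the lowest without RPF steady replicate 2. Against FRC, 1734 genes were called higher, and 1129 without both of those libraries. Fits with libraries left out hold fewer samples, while the DESeq2 fit held all 9 libraries. The causes of these shifts were not tested. Only uncalled log2 values changed sign. After depletion, with 1 library left out, these ranged from -0.0092 to 0.49 for Adamts12, from -4.45 to 4.26 for Adamtsl1, from -0.0855 to 0.59 for Ctse, from -0.0366 to 0.21 for Ctsk and from -1.51 to 0.68 for Adamts7. In limma-voom Adamtsl1 was at 0.17 and Adamts7 at -0.0575, and Adamtsl1 was at 4.26 without both libraries that lack Y-linked reads. Against FRC, with 1 library left out, Ctsd ranged from -0.12 to 0.0223 and Ctss from -0.27 to 0.69, Ctsd was at 0.0066 with the compared groups alone, and Ctss at -0.51 without both libraries. No paired analysis was possible because the replicate numbers were given in accession order and pair no libraries, and the labels do not tie FRC to RPF libraries by mouse. At 3 libraries a group, members under about 10 CPM spread widely between libraries, and differences there were often not detectable.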
